A study of Mus musculus with 2 samples.

Results

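Plvap-positive capillary endothelium was examined in single-cell RNA sequencing of whole kidneys from newborn mice. The cells were chosen by their transcripts, each counted as a unique molecular identifier (UMI). A member had at least 1 UMI of at least 3 of the 8 general endothelial genes Pecam1, Kdr, Cdh5, Emcn, Flt1, Egfl7, Esam and Tie1. It also had at least 1 UMI of Plvap, none of Ehd3 and at most 1 detected gene of the arterial genes Gja4, Gja5, Sox17, Stmn2, Hey1 and Efnb2. Cells with an authors' doublet score over 1 were left out. The rule kept 608 of 14565 cells, 254 in the exposed library and 354 in the control library. All of these values were therefore used to choose the members, and the levels of those genes are given as descriptions only.

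The study asked how maternal diabetes alters kidney development. There was 1 library of a kidney exposed to maternal diabetes, labelled DM_Exp, and 1 library of a control kidney, both from male C57BL/6J mice at postnatal day 2. The labels name 1 kidney for each group and also speak of pooled cells, so the number of animals behind a library cannot be told, and the labels do not say how the diabetes was brought about. With 1 library per group no difference between exposed and control cells has a replicate check, and all intervals cover counting error only. Kidneys were taken apart with trypsin and frozen as cell suspensions before 10x Chromium 3′ libraries were made.

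The endothelium of the kidney divides into arteries, glomerular capillaries, peritubular capillaries and veins. Plvap encodes the protein of the diaphragms that span endothelial fenestrae and caveolae, and in the adult kidney it is typical of peritubular capillaries and veins, while Ehd3 marks glomerular endothelium. In developing kidneys immature glomerular capillaries also carry diaphragms. Emcn encodes the sialomucin endomucin of capillaries and veins, and Pecam1 and Cdh5 encode adhesion proteins of all endothelial junctions.

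Members held a median of 2991.5 UMIs in the exposed library and 2215 in the control library. Their summed counts came to 884058 UMIs in exposed and 997800 in control members over the 8930 genes listed for both libraries, and levels are given as CPM, a gene's UMIs scaled to a common total. Mitochondrially encoded genes took 5.92% of the UMIs of exposed members and 9.84% of those of control members, and 4 exposed and 20 control members had over 25% mitochondrial UMIs. Some 14 cell barcodes occurred in both libraries, and none of them was a member in both. The authors' own cluster numbers, which carry no names, placed 253 of the 254 exposed members in cluster 3 and 337 of the 354 control members in cluster 4 of their libraries.

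Members made up 54.7% of the 464 endothelial cells in the exposed library (254 cells, exact binomial interval 50.1 to 59.3) and 52.5% of the 674 in the control library (354 cells, 48.7 to 56.3). At full depth the difference of 2.22 percentage points lay within counting error (Newcombe interval -3.67 to 8.07). Of all kept cells, members were 4.87% in the exposed and 4.17% in the control library, a difference of 0.698 points (-0.012 to 1.44). The rule turns on single UMIs, and the libraries differ in depth. In another setting every cell was first thinned to 2000 UMIs and shallower cells were dropped. The difference in the share of endothelial cells was then 8.34 points, past the upper end of the interval at full depth. The size of the difference thus depended on this step. A further 12 exposed cells (2.59% of endothelial cells) and 48 control cells (7.12%) passed every criterion but had no Plvap UMI, and these had median depths of 3311.5 UMIs in exposed and 2057 UMIs in control cells.

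The 4 genes that mark this label are all genes of the rule, so their levels describe the members and give the label no support. Plvap stood at 2717 CPM in exposed and 2251 CPM in control members, a level fixed in part by the rule, with a median of 8 UMIs per exposed member and 5 per control member. A lone Plvap UMI admitted 18 exposed members (7.09%) and 41 control members (11.6%). Emcn stood at 1036 CPM in exposed and 1031 CPM in control members, Pecam1 at 463 CPM in exposed and 471 CPM in control members, and Cdh5 at 601 CPM in exposed and 583 CPM in control members. In cells with at least 3 epithelial genes Plvap stood at 0.777 CPM in the exposed and 3.58 CPM in the control library, and a Plvap UMI was found in 0.564% of those exposed and 1.57% of those control cells, at median depths of 5897.5 UMIs in the exposed and 4901 UMIs in the control library. The remaining 12 of 20 general endothelial genes were not used by the rule. Other kidney cells are the kept cells with fewer than 3 of the 8 general endothelial genes of the rule. All 12 genes were at least 2-fold higher in members than in other kidney cells in both libraries. The log2 ratios ran from 2.76 to 5.58 in the exposed and from 2.79 to 5.61 in the control library. This gap was set in part by the choice of cells. It describes endothelium of any class and gives the capillary label no support. Icam2, an adhesion molecule gene, stood at 524 CPM in exposed members against 1.16 CPM in exposed other kidney cells, and at 549 CPM in control members against 1.46 CPM in control other kidney cells.

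Detection of Plvap did not set the members apart from the rest of the endothelium. A Plvap UMI was found in 76.0% of exposed and 74.4% of control arterial-type cells, which are endothelial cells with at least 2 arterial genes. The Plvap level was lower there, at 1152 CPM in exposed and 1011 CPM in control arterial-type cells. Members stood at 2717 CPM in the exposed and 2251 CPM in the control library, a level fixed in part by the rule. Among endothelial cells with Ehd3 and at most 1 arterial gene, 92.3% of 52 exposed cells and 89.5% of 57 control cells also had a Plvap UMI. Cells with Ehd3 but without Plvap numbered 4 in the exposed and 6 in the control library, too few to compare. The compared class was therefore every Ehd3-positive cell whatever its Plvap count, a definition chosen after seeing the data. Cells with exactly 1 Ehd3 UMI, which lie just outside the rule, had 2266 CPM of Plvap in the 37 exposed cells and 3775 CPM in the 39 control cells.

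**Figure D1:**
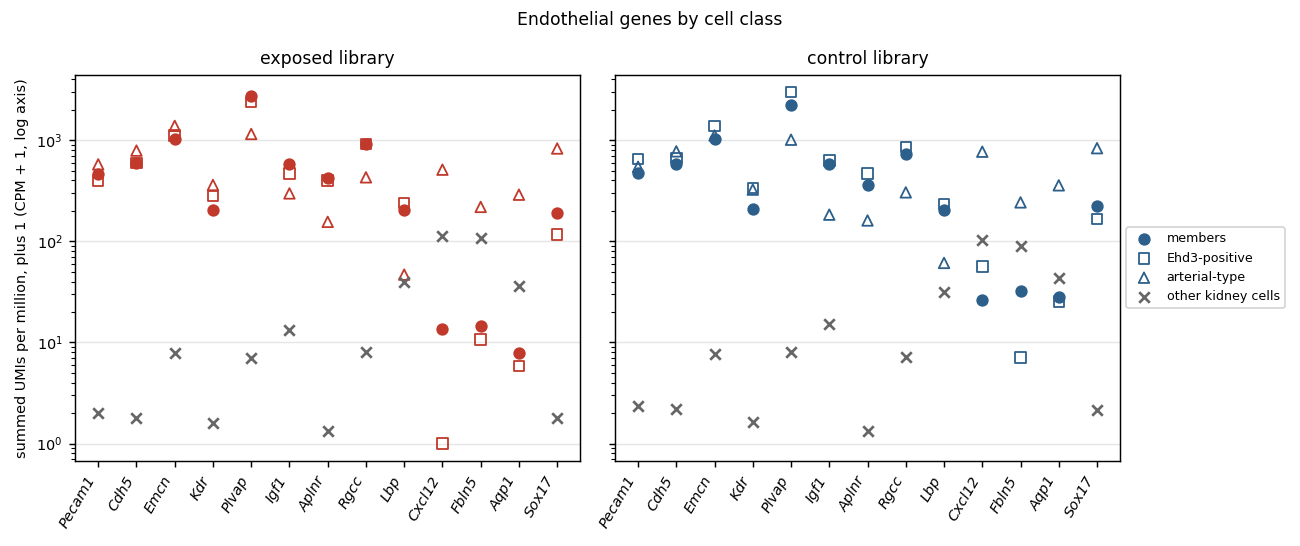
Summed UMIs scaled to a common total, CPM plus 1 (log axis), of 13 genes in members, Ehd3-positive and arterial-type endothelium and other kidney cells, with the exposed library on the left and the control library on the right. Members and Ehd3-positive cells lie close together for most genes, while Cxcl12, Fbln5 and Aqp1 are far higher in arterial-type cells. Pecam1, Cdh5, Emcn, Kdr, Plvap and Sox17 are rule genes, and both classes met the same criteria for general endothelial and arterial genes.

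Members differed clearly from arterial-type endothelium in genes that the rule did not use. Of 2576 genes with at least 100 UMIs over both classes in each library, 8 were at least 2-fold higher in members in both libraries (0.311%) and 25 were at least 2-fold lower (0.97%), with 10 CPM added to each level. With cells thinned to 2000 UMIs 12 genes were higher and 7 lower, and over all settings tried the counts ran from 3 to 19 higher and from 6 to 64 lower. The genes higher in members were Lbp, Bgn, Ramp3, Aplnr, Rgcc, Pdia5, Odc1 and Gas6. They include a pair of peptide hormone receptor components (Aplnr, the apelin receptor, and Ramp3, a partner of adrenomedullin receptors), the secreted lipopolysaccharide-binding protein Lbp, the matrix proteoglycan biglycan (Bgn) and Gas6, a ligand of TAM receptor kinases. None of these 8 genes was found at least 2-fold higher in members than in Ehd3-positive cells in both libraries. Bgn and Aplnr, for example, did not set members apart from Ehd3-positive cells. Bgn stood at 233 CPM in exposed and 203 CPM in control Ehd3-positive cells, against 195 CPM in exposed and 165 CPM in control members. Aplnr stood at 397 CPM in exposed and 467 CPM in control Ehd3-positive cells. No test was made of any class difference, since the cells of a library are not replicates.

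Lbp (chr2:158306493-158332852, mm10) stood at 204 CPM in exposed members against 45.9 CPM in exposed arterial-type cells, and at 203 CPM in control members against 60.2 CPM in control arterial-type cells. The log2 ratios of members over arterial-type cells were 1.93 in the exposed and 1.60 in the control library. Aplnr (chr2:85136225-85139923) stood at 419 CPM in exposed members against 155 CPM in exposed arterial-type cells, and at 359.8 CPM in control members against 159.8 CPM in control arterial-type cells. In other kidney cells Aplnr was at 0.344 CPM in the exposed and 0.318 CPM in the control library, so its UMIs were nearly all endothelial. Rgcc, a regulator of the cell cycle, stood at 913 CPM in exposed members against 429 CPM in exposed arterial-type cells, and at 735 CPM in control members against 304 CPM in control arterial-type cells. Members were thus above arterial-type cells for each of these genes in both libraries.

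Igf1, the growth factor IGF-1, was the next gene in this order (chr10:87858265-87937042). It stood at 586 CPM in exposed members against 297 CPM in exposed arterial-type cells, and at 579 CPM in control members against 183 CPM in control arterial-type cells, with log2 ratios of 0.96 in the exposed and 1.61 in the control library. Stromal cells had 31.6 CPM in the exposed and 46.5 CPM in the control library. Tek, which encodes the angiopoietin receptor Tie2, stood at 242 CPM in exposed members against 118 CPM in exposed arterial-type cells, and at 229 CPM in control members against 118 CPM in control arterial-type cells. Neither gene reached 2-fold over arterial-type cells in both libraries, and neither was found past 2-fold over Ehd3-positive cells in both.

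The 25 genes lower in members were led by Cxcl12, a chemokine, and by the water channel gene Aqp1. Cxcl12 (chr6:117168535-117181367) stood at 12.4 CPM in exposed members against 511 CPM in exposed arterial-type cells, and at 25.1 CPM in control members against 769 CPM in control arterial-type cells. Aqp1 stood at 6.79 CPM in exposed members against 288 CPM in exposed arterial-type cells, and at 27.1 CPM in control members against 357 CPM in control arterial-type cells. The same set held genes of elastic fibres and vessel wall matrix. Fbln5 was at 13.6 CPM in exposed members against 218 CPM in exposed arterial-type cells, and at 31.1 CPM in control members against 242 CPM in control arterial-type cells. Eln, Fbln2 and Ltbp4 were lower in the same way, with log2 ratios of -1.75, -1.54 and -1.47 in the exposed library and -1.11, -2.08 and -1.95 in the control library. Cav1 and Cav2, which build caveolae, had log2 ratios of -2.25 and -1.32 in the exposed library and -1.56 and -1.12 in the control library. Mecom, Klf4 (transcription factors), Pdgfb (a ligand that recruits pericytes) and Esm1 (a marker of tip cells at the angiogenic front) were also in the set.

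**Figure D2:**
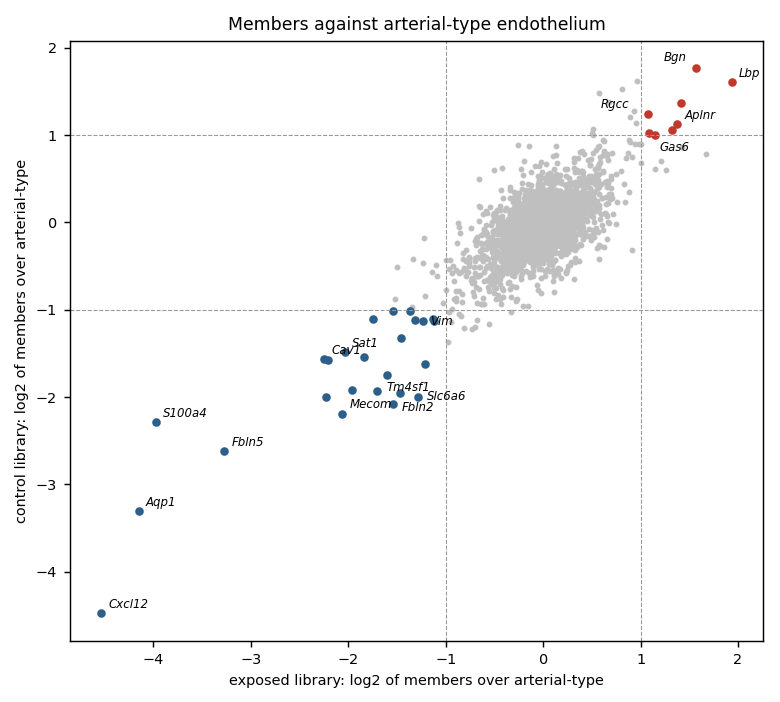
Each point is a gene, placed by its log2 ratio of members over arterial-type cells in the exposed library (horizontal) and in the control library (vertical), with 10 CPM added; rule genes are left out and dashed lines mark 2-fold. The 8 genes past 2-fold upward in both libraries (red) and the 25 past it downward (blue) have the same sign in both libraries, with Cxcl12 the farthest out, while S100a4 lies off the diagonal at -3.98 in the exposed and -2.29 in the control library.

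Levels of some genes differed in steps with the number of arterial genes detected. Of 18 genes outside the rule that were looked at, 8 went down and 4 went up over the steps in both libraries, and 6 were out of order in at least 1 library. Most of these 18 genes were already known to differ between members and arterial-type cells, so their direction toward the last step was set beforehand. The share of all measured genes that run in such an order was not counted, so these counts are descriptions only. In the exposed library 127 members had no arterial gene and 127 had 1, and in the control library 178 had none and 176 had 1. Sox17, an arterial transcription factor gene, was detected in 30.3% of exposed and 30.8% of control members, against 92.5% of exposed and 91.6% of control arterial-type cells, where the rule selected for it. Lbp stood at 240.4, 174 and 45.9 CPM in exposed cells with none, with 1 and with at least 2 arterial genes, and at 279, 138 and 60.2 CPM in the control cells of the same steps. Igf1 stood at 612, 565 and 297 CPM over the exposed steps and at 751, 431 and 183 CPM over the control steps. Both genes were highest in the cells with no arterial gene, in each library.

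Vim, which encodes the filament protein vimentin, ran the other way, at 835, 1109 and 2335 CPM over the exposed steps and 688, 1009 and 1899.5 CPM over the control steps. Cxcl12 stood at 5.06, 18.4 and 511 CPM over the exposed steps and at 8.66, 39.2 and 769 CPM over the control steps. Emcn, a gene of the rule, showed no such steps and was highest in arterial-type cells in both libraries. It stood at 1086, 996 and 1385 CPM over the exposed steps and at 1069.5, 998 and 1113 CPM over the control steps. The 6 genes out of order were S100a4, Tm4sf1, Fbln5 and Klf4 in the exposed library, Aqp1 in the control library and Nrp1 in both. S100a4, a calcium-binding protein gene, was at 20.2, 12.3 and 397 CPM over the exposed steps and at 41.1, 172 and 582 CPM over the control steps. Nrp1, a VEGF co-receptor gene, was at 159, 121 and 311 CPM over the exposed steps and at 143, 134 and 316 CPM over the control steps. Cells with 1 detected arterial gene therefore lay between the others for Lbp, Igf1, Vim and Cxcl12. Deeper cells detect more genes, and median depths were 2769 and 3201 UMIs in exposed members with none and with 1 arterial gene, and 2106.5 and 2346 UMIs in control members; the part of depth in these steps was not tested.

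**Figure D3:**
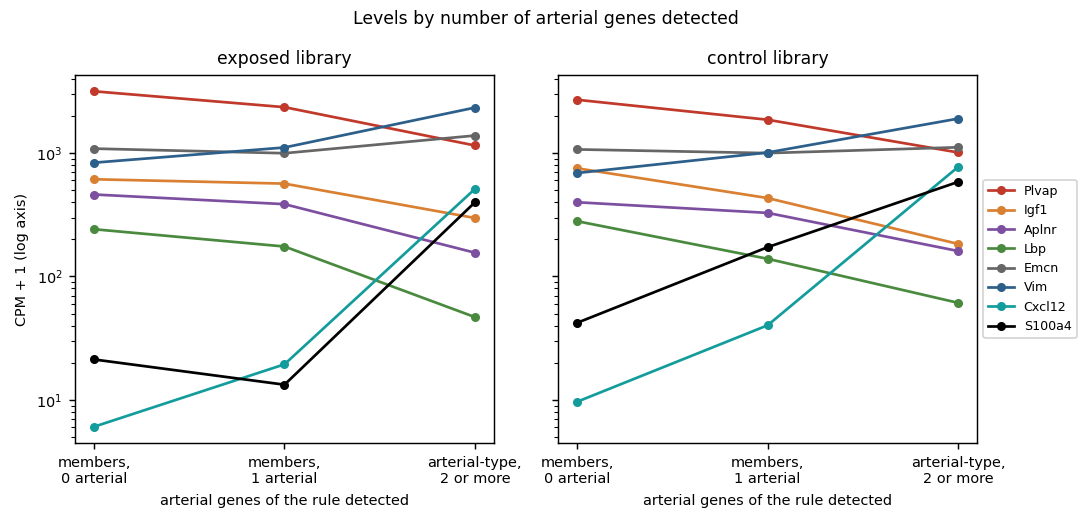
Levels of 8 genes (CPM plus 1, log axis) in members with 0 arterial genes, members with 1 and arterial-type cells with 2 or more, with the exposed library on the left and the control library on the right. Plvap, Igf1, Aplnr and Lbp go down over the steps and Vim and Cxcl12 go up in both libraries; Plvap is a rule gene.

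Fewer genes passed 2-fold between members and Ehd3-positive cells, of which there were also fewer. Of 1685 genes with enough UMIs, 2 were at least 2-fold higher in members in both libraries (0.119%), and none was lower past 2-fold in both (0%). The minimum applied to the UMIs of both classes together. Members held 884058 UMIs in the exposed and 997800 in the control library, against 206411 and 162811 in Ehd3-positive cells. Genes found mainly in Ehd3-positive cells could thus rarely enter, so the lack of lower genes does not show that none exist. The genes higher in members were Btg2 and Atf3, both immediate early genes, which cells switch on within minutes of a stimulus. Btg2 stood at 182 CPM in exposed members against 77.5 CPM in exposed Ehd3-positive cells, and at 106 CPM in control members against 43.0 CPM in control Ehd3-positive cells. Atf3 stood at 103 CPM in exposed members against 43.6 CPM in exposed Ehd3-positive cells, and at 122 CPM in control members against 55.3 CPM in control Ehd3-positive cells. Each call rested on few UMIs, and no gene passed 2-fold upward when 2 Plvap UMIs were required, when cells were thinned to 2000 UMIs, or when cells with high doublet scores were kept. The count was 5 with a minimum of 30 UMIs, where 3 genes were lower, and 26 without the 5 cells richest in each gene in each class. Leaving out 5 cells takes a larger part of the 52 and 57 Ehd3-positive cells than of the 254 and 354 members. That setting lowers Ehd3-positive levels more by its construction, so the count of 26 does not show how close the classes are.

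Among the genes with enough UMIs, those nearest to a 2-fold lower level in members were Id2, Chst2, Igfbp5 and Exoc3l2. Id2, a target of BMP signalling, stood at 83.7 CPM in exposed members against 208 CPM in exposed Ehd3-positive cells, and at 99.2 CPM in control members against 203 CPM in control Ehd3-positive cells. Igfbp5, an insulin-like growth factor binding protein gene, stood at 128 CPM in exposed members against 233 CPM in exposed Ehd3-positive cells, and at 226.5 CPM in control members against 583.5 CPM in control Ehd3-positive cells. Members were below Ehd3-positive cells for both genes in both libraries.

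Between exposed and control members most genes were close. Of 2958 genes that reached 100 UMIs over the 2 libraries together, 33 were at least 1.5-fold higher in exposed members and 33 at least 1.5-fold lower (2.23% in either direction, 1.12% each way). The median log2 ratio was 0.06, with -0.24 at the 10th and 0.34 at the 90th percentile. Of the 33 lower genes, 14 were mitochondrially encoded or haemoglobin genes, and without them 33 genes were higher and 19 lower of 2942 (1.77% in either direction, 0.646% downward). The balance depended on scaling: 26 genes were higher and 48 lower when the totals left out mitochondrially encoded genes, and 22 genes were higher and 48 lower when the median gene ratio was set to 1. The higher count ranged from 1 to 147 over the settings tried, so it serves as a description of these libraries.

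**Figure D4:**
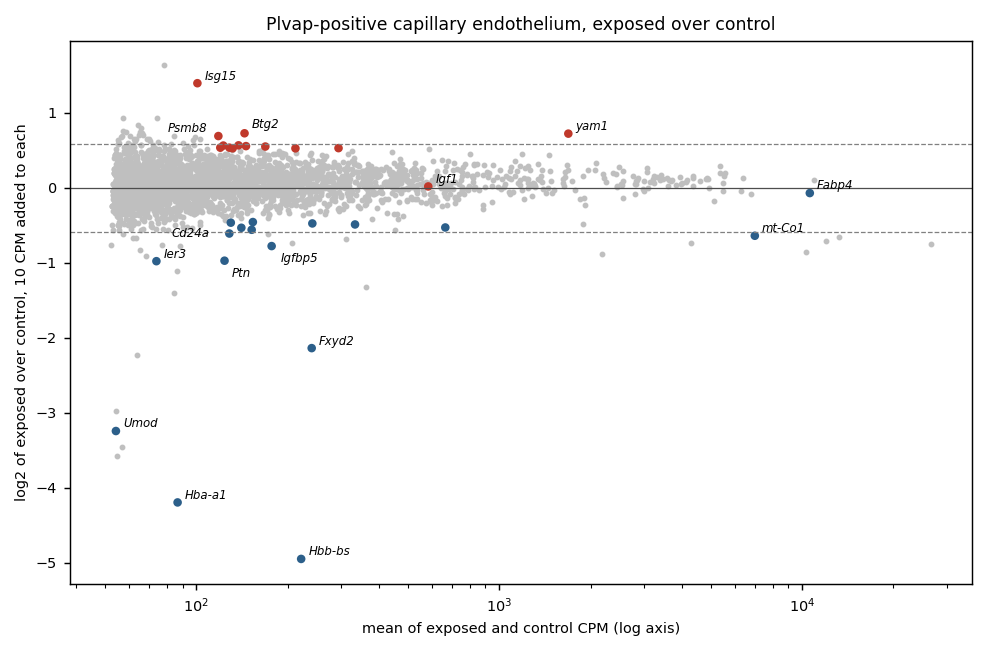
Each point is a gene measured in the members, placed by its mean CPM (log axis) and its log2 ratio of exposed over control with 10 CPM added; dashed lines mark 1.5-fold. Isg15 lies at 1.39, Fabp4 and Igf1 lie near 0, and haemoglobin genes, Umod and Fxyd2 lie lowest.

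The interferon response and MHC class I genes were the list with the highest median. Of 22 genes 12 were measured, and 9 of these were higher and 3 lower in exposed members. The median log2 ratio was 0.36 beside 0.06 over all measured genes. With 10 CPM added, 2 of the 12 were past 1.5-fold upward, where 1.12% of all measured genes were. Ratios with intervals are given without that addition. Isg15, a ubiquitin-like protein that interferon induces (chr4:156199424-156200818), had 133 UMIs (150.4 CPM) in exposed members and 51 UMIs (51.1 CPM) in control members. The ratio was 2.94 (exact conditional binomial interval 2.12 to 4.15). Psmb8, a catalytic subunit of the immunoproteasome, stood at 148 CPM in exposed and 88.2 CPM in control members, a ratio of 1.68 (1.27 to 2.23). Both intervals lie above 1, and the 5 cells richest in Isg15 held 20.3% of its exposed UMIs and 27.5% of its control UMIs.

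B2m, the light chain of MHC class I, stood at 383 CPM in exposed and 272 CPM in control members, a ratio of 1.41 (1.20 to 1.66). Bst2, the antiviral membrane protein tetherin, stood at 923 CPM in exposed and 673 CPM in control members, a ratio of 1.37 (1.24 to 1.52). Ifitm3, which blocks entry of viruses, stood at 2313 CPM in exposed and 1846 CPM in control members, a ratio of 1.25 (1.18 to 1.34). The 3 lower genes were Ifitm2, Ly6a and Ly6c1, and Ly6c1 stood at 374 CPM in exposed and 476 CPM in control members, a ratio of 0.786 (0.681 to 0.907). A pair of interferon-induced genes outside the list, Rtp4 and Xaf1, were named after their values were seen. Rtp4 had 109 UMIs in exposed and 33 in control members, a ratio of 3.73 (2.51 to 5.68), and Xaf1 had 75 UMIs in exposed and 43 in control members, a ratio of 1.97 (1.34 to 2.93).

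The direction was shared by the other cells of the kidney. The list's median log2 ratio was 0.21 in arterial-type endothelium and 0.28 in other kidney cells. Isg15 stood at 145 CPM in exposed and 41.5 CPM in control arterial-type cells, and at 189 CPM in exposed and 73.7 CPM in control Ehd3-positive cells. In stromal cells it stood at 20.5 CPM in exposed and 5.50 CPM in control cells, and in epithelial cells at 3.89 CPM in exposed and 1.34 CPM in control cells. Endothelial classes were thus the higher in each library, and exposed cells were the higher in each class. An Isg15 UMI was found in 12.2% of exposed and 4.84% of control members after thinning to 1000 UMIs per cell, and in 28.3% of exposed and 10.5% of control members before thinning. Whether the difference between libraries was larger in members than in other cells was not tested.

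Interferon-stimulated genes are known to be induced through factors that bind the interferon-stimulated response element, whose core repeats GAAA. The promoters of Isg15, H2-T23, B2m and Bst2 are shown because these are the list members that were higher in exposed members and hold the motif searched for on either strand, which is GAAA, any 2 bases and GAAA again. Each run gives the 250 bases before the gene start on the gene's own strand (RefSeq, GRCm38.p6), with every motif match in capitals. The coordinates are chr4:156200819-156201068 on the minus strand for Isg15, chr17:36032702-36032951 on the minus strand for H2-T23, chr2:122147437-122147686 on the plus strand for B2m and chr8:71537473-71537722 on the minus strand for Bst2.
Isg15: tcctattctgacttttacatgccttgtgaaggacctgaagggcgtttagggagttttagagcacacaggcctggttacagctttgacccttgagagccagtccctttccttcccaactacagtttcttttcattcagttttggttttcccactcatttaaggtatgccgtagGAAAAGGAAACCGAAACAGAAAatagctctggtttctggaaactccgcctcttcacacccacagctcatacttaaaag
H2-T23: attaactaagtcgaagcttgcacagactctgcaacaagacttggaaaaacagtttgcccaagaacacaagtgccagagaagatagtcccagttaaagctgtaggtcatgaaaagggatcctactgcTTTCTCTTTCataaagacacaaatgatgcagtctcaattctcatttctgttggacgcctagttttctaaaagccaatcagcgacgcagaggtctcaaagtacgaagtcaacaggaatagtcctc
B2m: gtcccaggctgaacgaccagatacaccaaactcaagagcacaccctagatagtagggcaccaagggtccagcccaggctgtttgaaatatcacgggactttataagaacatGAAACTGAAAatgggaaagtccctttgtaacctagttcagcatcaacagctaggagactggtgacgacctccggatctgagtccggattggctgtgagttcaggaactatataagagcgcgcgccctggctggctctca
Bst2: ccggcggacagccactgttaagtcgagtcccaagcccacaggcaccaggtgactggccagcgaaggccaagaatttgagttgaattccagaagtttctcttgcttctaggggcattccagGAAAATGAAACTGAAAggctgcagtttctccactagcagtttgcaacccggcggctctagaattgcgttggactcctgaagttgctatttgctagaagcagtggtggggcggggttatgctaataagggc
The Isg15 run holds 3 overlapping matches, the Bst2 run 2 overlapping matches and the B2m run 1, and the single match in the H2-T23 run reads on the opposite strand. H2-T23, a non-classical MHC class I gene, had 65 UMIs in exposed and 46 UMIs in control members, a ratio of 1.59 (1.08 to 2.38); its counts are uncertain, since MHC class I genes share sequence. Of the 12 measured list genes 10 matched a RefSeq promoter, and 5 of these held the motif on either strand: Isg15, H2-T23, B2m, Bst2 and Ifitm2, of which Ifitm2 was not higher in exposed members (log2 ratio -0.06). The motif was found in 2.98% of the 32851 promoters in the table and in 3.24% of the 2282 measured genes with a promoter. A match describes these letters only.

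Cell cycle genes leaned upward in exposed members. In the G2/M list 13 of 14 measured genes were higher (median log2 ratio 0.31), and in the S phase list 13 of 16 (0.15), against 61.9% of all measured genes above 0. Mki67, the proliferation marker Ki-67, had 75 UMIs in exposed and 48 UMIs in control members, a ratio of 1.76 (1.21 to 2.59), and was the only G2/M gene past 1.5-fold. Birc5, which encodes survivin of the mitotic chromosomal passenger complex, stood at 278 CPM in exposed and 199 CPM in control members, a ratio of 1.40 (1.15 to 1.69). Hmgb2 stood at 1090.4 CPM in exposed and 925 CPM in control members, a ratio of 1.18 (1.08 to 1.29). Cenpa, a centromeric histone gene, was the exception, at 117 CPM in exposed and 122 CPM in control members.

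At equal depth the differences lay within counting error. Cells with at least 2 G2/M genes made up 29.5% of exposed members (exact binomial interval 24.0 to 35.6) and 22.5% of control members (18.2 to 27.2) after thinning to 1000 UMIs, a difference of 7.02 points whose interval reached 0 (-0.011 to 14.2). Before thinning the shares were 50% of exposed and 39.5% of control members. For the S phase the thinned shares were 35.4% of exposed and 28.5% of control members, 6.94 points apart (-0.54 to 14.5). The median of the G2/M list was -0.015 when cells were thinned to 2000 UMIs before the rule was applied. In arterial-type cells the thinned G2/M shares were 20.5% in the exposed and 19.2% in the control library, while 13 of the same 14 genes were higher in exposed arterial-type cells, with a median log2 ratio of 0.52. The upward lean of the G2/M genes was thus not limited to members. For the S phase list, 8 of the 16 genes were higher in exposed arterial-type cells, with a median log2 ratio of 0.03. The thinned S phase shares of arterial-type cells were 21.9% in the exposed and 22.4% in the control library.

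Lists of lipid handling and glycolysis had medians above that of all measured genes (0.06) in exposed members. Of 11 measured genes for caveolae, fenestration and lipid handling, 8 were higher (median log2 ratio 0.26) and none was past 1.5-fold, where 61.9% of all measured genes were higher. The list also held genes with lower levels. Fabp5, a fatty acid binding protein gene, stood at 1679.7 CPM in exposed and 1239.7 CPM in control members, a ratio of 1.35 (1.26 to 1.46). Its relative Fabp4 stood at 10323 CPM in exposed and 10853 CPM in control members, a ratio of 0.951 (0.925 to 0.978), against 14.7 CPM in exposed and 30.8 CPM in control other kidney cells. Gpihbp1, which carries lipoprotein lipase across capillary walls, stood at 1090.4 CPM in exposed and 1135 CPM in control members. Glycolysis genes were higher in 7 of 8 measured (median 0.23), with Pkm at 764 CPM in exposed and 594 CPM in control members and Ldha at 590.5 CPM in exposed and 466 CPM in control members, and the median was 0.26 in arterial-type cells. The 2 fatty acid binding protein genes thus differed in direction.

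Endothelial identity and signalling genes were close between the libraries. Of the 12 general endothelial genes outside the rule 9 were higher, with a median log2 ratio of 0.07 beside 0.06 over all measured genes, and none was past 1.5-fold. With the 8 genes of the rule, 15 of 20 were higher (median 0.05). The VEGF, angiopoietin and Tie list had 10 of 14 measured genes higher (median 0.07). Kdr and Flt1 in this list are genes of the rule, and their levels are descriptions. Kdr, the main VEGF receptor, stood at 201 CPM in exposed and 208 CPM in control members, and Flt1, a decoy VEGF receptor, at 234.1 CPM in exposed and 233.5 CPM in control members. Ramp3 stood at 231 CPM in exposed and 187 CPM in control members, a ratio of 1.23 (1.00 to 1.51). The BMP and TGF-beta list had 6 of 11 higher (0.07), with Id3 at 734 CPM in exposed and 697 CPM in control members. Junction and adhesion genes were higher in 10 of 16 (0.04), basement membrane and matrix genes in 8 of 14 (0.02), angiogenic front genes in 5 of 9 (0.06) and vein-side genes in 5 of 7 (0.09). None of these lists had a gene past 1.5-fold.

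Endothelial transcription factor genes were higher in 7 of 16 measured, with a median of -0.02. Sox18, which acts in vessel and lymphatic formation, stood at 377 CPM in exposed and 304 CPM in control members, a ratio of 1.24 (1.06 to 1.45). Nr2f2, the vein-specifying factor, stood at 182 CPM in exposed and 146 CPM in control members, a ratio of 1.24 (0.989 to 1.57), and Fli1, an ETS factor, at 50.9 CPM in exposed and 80.2 CPM in control members, a ratio of 0.635 (0.431 to 0.926). Vasoactive and anticoagulant genes were higher in 2 of 7 (-0.05), hypoxia response genes in 2 of 7 (-0.03), oxidative stress genes in 6 of 8 (0.03) and nuclear-encoded oxidative phosphorylation genes in 18 of 41 (-0.04). Notch and ephrin genes were higher in 3 of 4 measured, and CDK inhibitors and p53 targets also in 3 of 4. Of the lymphatic list only Flt4, which capillaries also use, was measured, and Prox1, the lymphatic master factor, had 2 UMIs in exposed and 3 UMIs in control members.

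**Figure D5:**
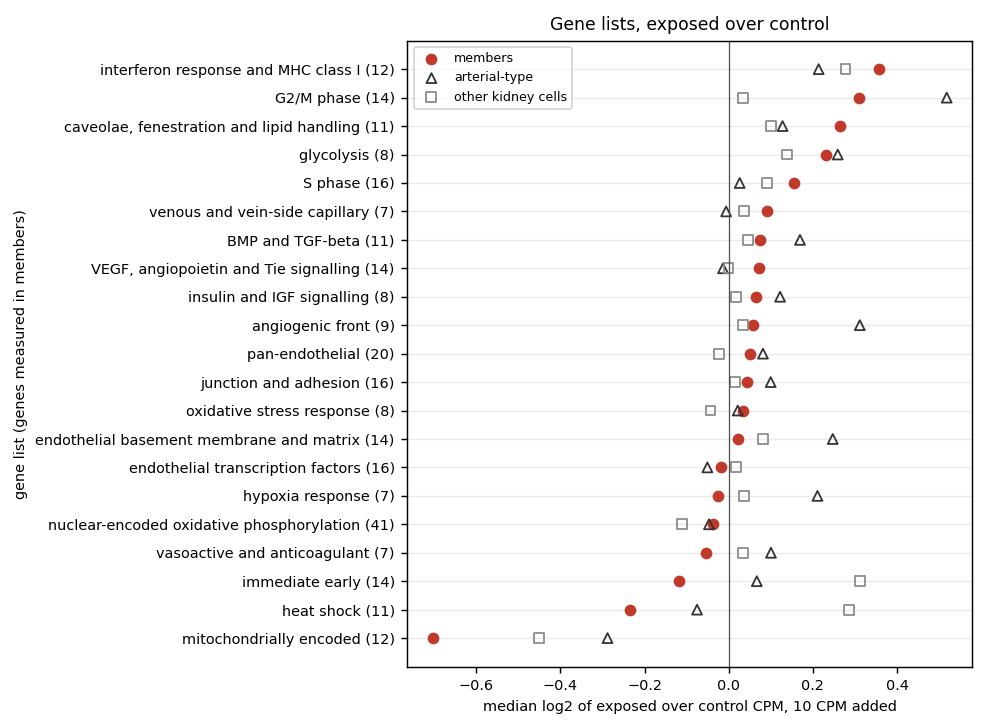
Median log2 ratio of exposed over control CPM of each gene list with at least 5 measured genes, in members (red circles), arterial-type cells (triangles) and other kidney cells (squares). The interferon list is highest in members at 0.36, the mitochondrially encoded list lowest at -0.70, and the immediate early and heat shock lists lie on opposite sides of 0 in members and other kidney cells.

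In the insulin and IGF list 6 of 8 measured genes were higher (median 0.06) and 1, Igfbp5, was past 1.5-fold, downward. Igfbp5 (chr1:72857932-72874884) had 113 UMIs (128 CPM) in exposed members and 226 UMIs (226.5 CPM) in control members, a ratio of 0.564 (0.446 to 0.7104). It was also lower in exposed Ehd3-positive cells (233 CPM, against 583.5 CPM in control Ehd3-positive cells) and in exposed stromal cells (579.6 CPM, against 745 CPM in control stromal cells). In epithelial cells it stood at 116 CPM in the exposed and 118 CPM in the control library. Igf1 itself was level in members, with a ratio of 1.01 (0.897 to 1.14), and Igfbp4 had a ratio of 1.17 (1.07 to 1.28). Igfbp5 kept its direction under every setting tried, with log2 ratios from -0.96 to -0.41.

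Among genes with at least 200 UMIs the highest log2 ratios belonged to Btg2 (0.72), yam1 (0.72), Psmb8 (0.69), Aamp (0.56), Srrm1 (0.56), Sys1 (0.55), Snrpa (0.55), Eif2s1 (0.53), Cdc42ep2 (0.53), 2010111I01Rik (0.53), Hipk2 (0.52) and Ctsh (0.52). Btg2, an antiproliferative immediate early gene, stood at 182 CPM in exposed and 106 CPM in control members, a ratio of 1.71 (1.33 to 2.21). The name yam1 stands as in the files, and it had 2105 CPM in exposed and 1274 CPM in control members, with log2 ratios of 0.98 in arterial-type cells and 0.66 in other kidney cells. Snrpa and Srrm1 act in splicing, Eif2s1 is a subunit of translation initiation factor eIF2, and Ctsh is a lysosomal cathepsin. Only Btg2, yam1 and Psmb8 of these 12 were past 1.5-fold on the scale with 10 CPM added.

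Among the lowest were Fxyd2 (-2.14), Ptn (-0.97), Igfbp5 (-0.78), Cd24a (-0.61), Cdkn1c (-0.56), Pbrm1 (-0.53), Hspb1 (-0.53), Uqcr11 (-0.49), Prdx5 (-0.48), Ivns1abp (-0.47) and Lgals1 (-0.46). Several are genes of other kidney cells, and a few cells held many of their UMIs. Fxyd2, a sodium pump subunit of tubules, had 73 UMIs in exposed and 397 UMIs in control members, of which 70.3% lay in 5 control cells. Within the authors' cluster that held most members of each library, here called the main cluster, its log2 ratio was -0.99. Ptn, a growth factor that stroma makes in abundance (3701 CPM in exposed and 3550.0 CPM in control stromal cells), stood at 80.3 CPM in exposed and 167 CPM in control members.

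Markers of most other cell types were lower in exposed members, and their part in the lower genes was not tested. The 9 proximal tubule markers summed to 90.5 CPM in exposed and 467 CPM in control members, with 4 of them at 0 in exposed and 1 at 0 in control members. The 12 tubule and duct markers summed to 46.4 CPM in exposed and 339 CPM in control members, where 5 cells held 79.3% of the UMIs. The 10 stromal markers summed to 30.5 CPM in exposed and 208 CPM in control members, the 10 pericyte, smooth muscle and renin cell markers to 30.5 CPM in exposed and 81.2 CPM in control members, and the 10 macrophage and neutrophil markers to 55.4 CPM in exposed and 81.2 CPM in control members. In control members the 5 richest cells held 65.2% of the proximal tubule UMIs and 65.9% of the stromal UMIs. For the pericyte group they held 77.8%, and for macrophage and neutrophil markers 84.0%. In exposed members the same shares were 45%, 40.7%, 70.4% and 79.6%, in that order. Nephron progenitor markers ran the other way, at 118 CPM in exposed and 101 CPM in control members. Of these 7 markers only Meox1 reached 100 UMIs, and the 5 richest cells held 13.5% of the exposed and 15.8% of the control UMIs. Podocyte markers summed to 407 CPM in exposed and 506 CPM in control members. Of these 10 markers only Podxl and Cdkn1c reached 100 UMIs, and the 5 richest cells held 19.2% of the exposed and 29.3% of the control UMIs. The UMIs of these 2 lists were thus less confined to a few cells. Haemoglobin transcripts lay in a few cells: Hbb-bs had 4 UMIs in exposed and 438 in control members, and 5 cells held 99.5% of the control count.

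Mitochondrially encoded genes were lower in exposed members in all 12 measured cases, with a median of -0.70, and 10 of the 12 were past 1.5-fold. The largest gap was in mt-Nd3, at 202 CPM in exposed and 522 CPM in control members, and mt-Co1 stood at 5444 CPM in exposed and 8498 CPM in control members. The median was -0.29 in arterial-type cells and -0.45 in other kidney cells. It was -0.33 in members once cells with over 25% mitochondrial UMIs were left out, so the size of the difference depended on those cells.

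Immediate early and heat shock genes were on balance lower in exposed members and higher in exposed kidney cells outside the endothelium. Of 14 measured immediate early genes 4 were higher and 10 lower in exposed members (median -0.12, but 0.13 in members with no arterial gene), while 13 of the same 14 were higher in other exposed kidney cells (median 0.31). Junb, an AP-1 subunit gene, stood at 393 CPM in exposed and 504 CPM in control members, a ratio of 0.779 (0.677 to 0.895), and Ier3 at 46.4 CPM in exposed and 101 CPM in control members, a ratio of 0.458 (0.311 to 0.665). Btg2 was the gene past 1.5-fold upward. Of 11 measured heat shock genes 3 were higher and 8 lower in exposed members (median -0.23, but -0.03 in members with no arterial gene). In other exposed kidney cells 10 of the 11 were higher (median 0.29).

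Hspb1, the small heat shock protein Hsp27, stood at 541 CPM in exposed and 786 CPM in control members, a ratio of 0.688 (0.613 to 0.772). In members with no arterial gene its log2 ratio was 0.10, against -0.53 in all members. Hspa1a stood at 1752 CPM in exposed and 1952 CPM in control members, a ratio of 0.897 (0.839 to 0.9599), and Hsp90ab1 at 2344 CPM in exposed and 2056 CPM in control members, a ratio of 1.14 (1.07 to 1.21). In arterial-type cells the median was 0.07 for the immediate early list and -0.08 for the heat shock list, of which 4 of 11 genes were higher, so heat shock genes had the same direction in both endothelial classes. The difference between members and other kidney cells was not tested.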

How the data were processed

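Whole kidneys at postnatal day 2 gave 1 library per group, and Cell Ranger 2.2.0 with mm10 is named, per the submitters' processing notes. Deposited by the authors were UMI counts per gene and cell, whole numbers with no normalization; 9545 genes are listed for the exposed and 9590 for the control library, and the labels do not say how they were chosen. Their table of cells gives, per the file headers, the percent of mitochondrial UMIs and a doublet score per cell. The authors' log values were not used.

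Members and gene lists were chosen with earlier results of these data known. Counts were summed per gene, class and library over the 8930 shared genes, scaled to CPM, and compared as log2 ratios with 10 CPM added. Cells with a doublet score over 1 (277 exposed, 584 control) were left out. Genes needed 100 UMIs over both libraries, or over both classes in each library. Called means past 1.5-fold between libraries or past 2-fold between classes, with no test. Ratio intervals are exact conditional binomial, share intervals exact binomial (Clopper-Pearson), differences Newcombe, all at 95%; they treat UMIs as independent and leave out spread between cells. Named genes were the 12 highest and lowest with at least 200 UMIs (rule, mitochondrially encoded and haemoglobin genes left out), the 12 highest and lowest by the smaller of the class ratios, up to 4 per list, and the markers, except 1 gene that is not reported here; others named for background or as members of a listed set were chosen after their values were seen. Symbols came from GENCODE vM21 for 9839 of 10205 names and from RefSeq for 340. The planned comparison with Ehd3-positive, Plvap-negative cells was not made, with 4 and 6 such cells. Python 3.11.15, numpy 2.4.6, scipy 1.17.1, pandas 2.3.3 and matplotlib 3.10.9 were used. The ratio code was tested on simulated data.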

Additional observations from a re-analysis of the deposited data

Results flagged for a closer look

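The immediate early list moved one way in members and the other way in kidney cells outside the endothelium. Its median log2 ratio of exposed over control was -0.12 in members and 0.31 in other kidney cells. The difference was not tested, since there is 1 library per group. The median in members ranged from -0.19 to 0.13 over the settings tried, and was above 0 in members with no arterial gene and after thinning to 2000 UMIs.

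The heat shock list had a median of -0.23 in members and 0.29 in other kidney cells, with -0.08 in arterial-type endothelium, and this difference was not tested either. Its median in members stayed below 0 under every setting tried, from -0.30 to -0.03.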

How the results depend on the processing

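No paired analysis was possible because each group has 1 library, and no library could be left out. Beside the reported setting 15 others were run, of which 14 were planned, and 81 of 112 ratios of named genes kept 1 sign in all of them. Thinning to 2000 UMIs before the rule gave 231 exposed and 230 control members, a share difference of 8.34 points, 11 lower genes in exposed members, 7 genes lower than in arterial-type cells and 0 higher than in Ehd3-positive cells, and turned the G2/M median to -0.015. The genes past 1.5-fold upward numbered 57 and 4 with 1 and 50 CPM added, 147 and 1 with minimums of 30 and 300 UMIs, and 58 by the mean of per-cell CPM. Those past it downward numbered 152 and 14 with those minimums, 56 with high doublet scores kept and 16 within the authors' main clusters. Against arterial-type cells 13 and 4 genes were higher with 1 and 50 CPM added, 16 and 3 with the 2 minimums, and 19 without the 5 cells richest in each gene, while 64 and 6 were lower with the 2 minimums. Against Ehd3-positive cells the higher count was 0 with 2 Plvap UMIs, doublets kept, no arterial gene, 50 CPM or 300 UMIs, 1 with 4 general endothelial genes or within the main clusters, 5 with 30 UMIs and 26 without the richest 5 cells. The lower count there was 1 with 2 Plvap UMIs, doublets kept, 1 CPM or the main clusters, and 3 with 30 UMIs. Minimums and left-out cells act by their construction, and for the other settings the cause was not tested. The comparison with Plvap-negative, Ehd3-positive cells and its alternatives were not run, and the Ehd3-positive class and the main-cluster setting were chosen after seeing the data. A member's UMI is worth 1.13 CPM in the exposed and 1.00 CPM in the control library, so genes under 100 UMIs were left out of the reported comparisons.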

Other observations

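Some genes are listed for 1 library only (615 for the exposed and 660 for the control library) and entered no comparison. In exposed members the first of these by UMIs was Ada, adenosine deaminase, with 83 UMIs in 22.0% of cells, followed by Nmi, which encodes a partner of STAT proteins, with 64 UMIs in 21.7% of cells. In control members it was Ppm1f, a protein phosphatase gene, with 58 UMIs in 14.97% of cells, followed by Parvb, a parvin gene, with 55 UMIs in 14.4% of cells. Levels of these genes in the other library were not analysed here.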
